A study of Homo sapiens
Mus musculus and Homo sapiens and Mus musculus with 7 samples.

Results

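The messenger RNAs of 10 enzymes that carry glucose carbon through glycolysis and on to lactate were followed: GPI, ALDOA, TPI1, GAPDH, PGK1, PGAM1, ENO1, PKM, LDHA and LDHB. They were chosen by name, as the human genes with these GENCODE 29 symbols, and are 10 of the 58721 human genes counted. The level of each is its share of all human counts, in counts per 1e+06 human counts (CPM), in the 6 libraries with human RNA. All 10 had counts in each of those libraries, and all 10 were among the 6244 human genes with enough counts to be tested.

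The study asked whether an antibody against a tagged ribosomal protein can pull out the RNA of 1 cell type from a mixed culture. Human HEK293 cells, derived from embryonic kidney, expressed an HA-tagged form of the ribosomal protein RPL22, and mouse NIH3T3 fibroblasts expressed a V5-tagged form. From the mixed culture there were 2 immunoprecipitates (IPs) with the HA antibody, aimed at HEK293 ribosomes, 2 with the V5 antibody, aimed at NIH3T3 ribosomes, and 1 library of total RNA, the input. Total RNA of HEK293 cells grown alone and of NIH3T3 cells grown alone gave 1 library each. Each antibody had a first and a second IP. The first ones came from lysate 1, the second HA IP from lysate 5 and the second V5 IP from lysate 4. The labels leave unsaid whether these lysates were separate cultures, whether each tagged line was 1 clone, and whether the cells grown alone carried a tag. Human counts came to 729698 for the first HA IP, 1213213 for the second, 128915 for the first V5 IP, 81798 for the second, 280163 for the input and 826673 for HEK293 cells. Human genes held 82.1% and 77.6% of all counts for HA, 6.25% and 4.48% for V5, 26.9% for the input and 99.99% for HEK293 cells. The V5 IPs therefore gave the least precise values for human genes. In bulk RNA of this kind, a change in the number of HEK293 cells and a change in RNA per cell cannot be told apart. All 7 of a short list of HEK293 markers had counts in the HEK293 library, led by KRT18 with 161 counts and VIM with 85 counts. CDH2 had 19 counts there, LIN28B 9, KRT8 7, and PAX2 and INA 1 each. The fibroblast markers COL1A1 and LUM also had 1 count each there, so PAX2 and INA were no higher than these. Of 7 human fibroblast markers, 5 had 0 counts in all 6 libraries, and the list summed to between 0 and 12.2 CPM.

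Glycolysis splits glucose into pyruvate and keeps part of the energy as ATP. In the first stage GPI turns glucose phosphate into fructose phosphate, ALDOA cleaves the doubly phosphorylated sugar, and TPI1 interconverts the products of that cleavage. In the second stage GAPDH, PGK1, PGAM1, ENO1 and PKM oxidise and rearrange these fragments to pyruvate, with ATP made by PGK1 and by PKM. LDHA and LDHB encode the subunits of lactate dehydrogenase, which converts pyruvate and lactate into each other. Proliferating cell lines are known for high levels of these enzymes.

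The gene models come from the annotation in hg38 coordinates. GPI (ENSG00000105220.15) lies at chr19:34359480-34402413 on the plus strand, ALDOA (ENSG00000149925.18) at chr16:30064164-30070457 on the plus strand and TPI1 (ENSG00000111669.14) at chr12:6867119-6870948 on the plus strand. GAPDH (ENSG00000111640.14) lies at chr12:6533927-6538374 and PGK1 (ENSG00000102144.14) at chrX:77910739-78129296, both on the plus strand. PGAM1 (ENSG00000171314.8) lies at chr10:97426160-97433441 on the plus strand, ENO1 (ENSG00000074800.15) at chr1:8861000-8879250 on the minus strand and PKM (ENSG00000067225.17) at chr15:72199029-72231822 on the minus strand. LDHA (ENSG00000134333.13) lies at chr11:18394388-18408425 on the plus strand and LDHB (ENSG00000111716.12) at chr12:21635342-21757857 on the minus strand. The counts cover all annotated exons of each gene, untranslated regions included.

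Base composition set the members apart from one another, and their difference from the input, given below, ran with it. The longest transcript had a GC content of 43.3% for PGK1, 44.0% for LDHA and 46.5% for LDHB. It was 52.8% for PGAM1 and 53.1% for GPI, and between 57.3% and 60.8% for TPI1, PKM, GAPDH, ENO1 and ALDOA. At the third codon position, G or C made up 42.5% of codons in LDHB and 46.7% in LDHA, and between 55.9% (PGK1) and 75.8% (GPI) in the other 8. The starts of 5 coding sequences are given as examples, without GPI, the top of this range. For each, 24 codons from the start codon of the principal GENCODE 29 transcript are printed 5′ to 3′ on the coding strand. Capitals mark G or C at the third position of a codon.
LDHB: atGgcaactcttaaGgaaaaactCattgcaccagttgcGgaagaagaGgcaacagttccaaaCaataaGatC
LDHA: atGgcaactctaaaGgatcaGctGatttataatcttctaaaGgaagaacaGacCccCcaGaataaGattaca
GAPDH: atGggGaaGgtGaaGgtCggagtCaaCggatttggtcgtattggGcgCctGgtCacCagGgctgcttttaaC
ALDOA: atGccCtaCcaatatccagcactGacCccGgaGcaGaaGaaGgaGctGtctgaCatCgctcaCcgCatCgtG
TPI1: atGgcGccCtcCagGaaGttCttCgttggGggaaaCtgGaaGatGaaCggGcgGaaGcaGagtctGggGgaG
Of these 24 codons, 8 ended in G or C in LDHB, 10 in LDHA, 15 in GAPDH, 18 in ALDOA and 21 in TPI1. Over the whole coding sequence TPI1 had 66.3%, below GAPDH (71.9%) and ALDOA (73.6%). The starts therefore do not give the order of the whole sequences.

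Counting used no strand, and the command in the file headers sets no option to count reads that fall on several genes or match several places, which featureCounts then leaves out. ALDOA shared 53.5% of its exonic bases with other genes, mostly AC093512.2, LDHB shared 33.4% with AC010197.2, and GAPDH shared 14.2% with the antisense gene AC006064.4. AC093512.2 and AC010197.2 each had 1 count over all 7 libraries, and AC006064.4 had 0. The other 7 members shared between 0% and 5.07%. Of 50-base windows of the principal transcript, 81.6% for ALDOA and 73.1% for LDHB also occur in other genes. Leaving out reads on shared bases bears most on ALDOA and LDHB, and their levels per length are uncertain for that reason. Processed pseudogenes can also take reads of these genes. Among the 62 annotated GAPDH pseudogenes, 16 had counts, 146 in all over the 6 libraries, which is 0.596% of GAPDH and its pseudogenes together. The 4 annotated TPI1 pseudogenes had 27 counts, 0.397% of the total with TPI1. Of the PGAM1 transcript sequence, 43.1% of 50-base windows also occur in its pseudogenes, and its 13 annotated pseudogenes had 0 counts. PGAM1 levels are uncertain to the extent that such reads were left out. In the NIH3T3 library, none of the 1998567 mouse counts went with any count in the 10 members. A count of 0 there allows up to 3 counts, or 1.501 per 1e+06 counts of that library.

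The mRNAs of glycolysis took a larger share of human RNA in the input than in any IP. The 10 genes together held 1.43% of human counts (exact Clopper-Pearson 95% interval 1.40% to 1.46%) for the first HA IP and 1.18% (1.16% to 1.20%) for the second. They held 1.68% (1.61% to 1.75%) for the first V5 IP and 1.43% (1.35% to 1.51%) for the second. The share was 2.26% in the input (2.21% to 2.32%) and 1.4999% in HEK293 cells (1.47% to 1.53%). All 4 IPs lay below the input, 3 of them below HEK293 cells, and the second IP lay below the first with both antibodies. The share averaged 1.31% ± 0.176 in HA IPs and 1.55% ± 0.181 in V5 IPs (SD, n = 2 each), and the first HA IP and the second V5 IP could not be separated within their intervals. These intervals cover counting error only. GAPDH, ENO1 and TPI1 together made up between 86.5% and 92.6% of the members' counts in every library, so the share is mainly theirs. Mitochondrially encoded genes held 0.354% and 0.466% of human counts for HA, 2.28% and 3.54% for V5, 5.58% for the input and 8.35% for HEK293 cells. With those genes left out of the total, the share in the 10 enzymes was 2.39% in the input and 1.64% in HEK293 cells.

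**Figure D1:**
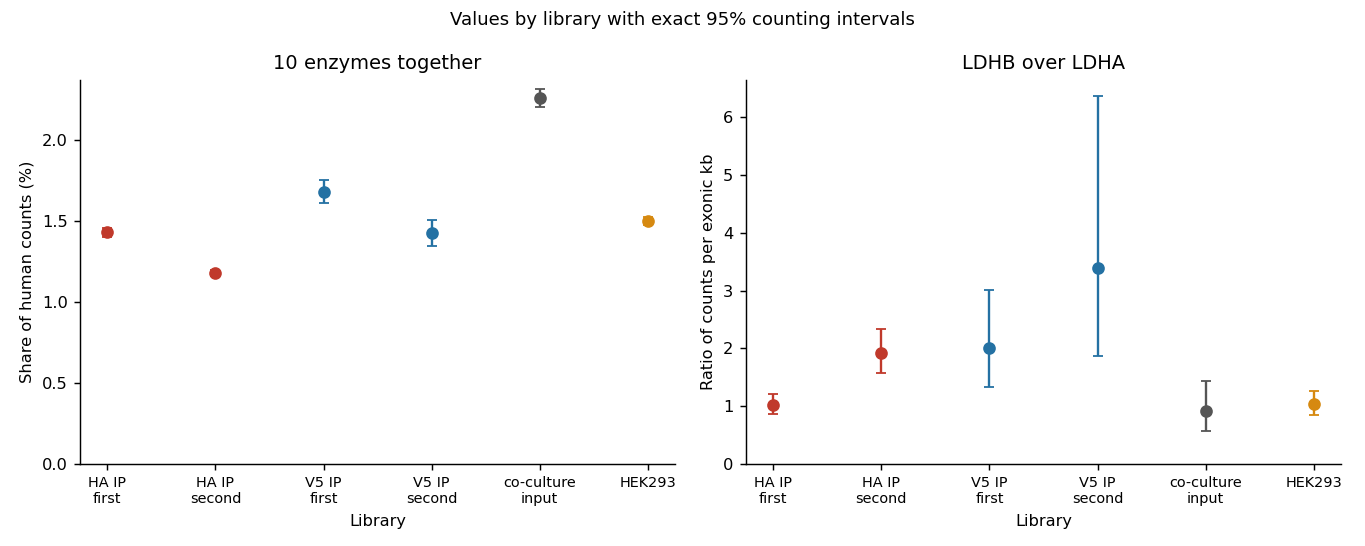
The left panel plots the share of human counts (%) in the 10 enzymes together, and the right panel the ratio of LDHB to LDHA counts per exonic kilobase, for each of the 6 libraries, with exact 95% counting intervals. Exonic length includes the bases that LDHB shares with another gene. The input has the highest share, 2.26%, and the second V5 IP the highest LDHB to LDHA ratio, 3.40.

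GAPDH, TPI1 and ENO1 had the highest levels per length, and the order of the other 7 depended in part on the length used. By CPM per kilobase of annotated exons, GAPDH, which oxidises the triose phosphate, was first of the 10 in all 6 libraries, with a lowest, median and highest library of 2263, 2519 and 4049. TPI1 (670.4, 772 and 1171) and ENO1 (412, 615 and 1080) held the second and the third place and exchanged them between libraries. Among all human genes ranked per length, GAPDH lay between ranks 14 and 34. The next members overlapped widely. LDHB ranged from 34.7 to 130.02 CPM per kilobase with a median of 79.6, ALDOA from 41.7 to 131 with a median of 60.5, LDHA from 27.7 to 93.3 with a median of 50.1, and PKM from 37.1 to 57.9 with a median of 44.8. PGK1 (median 37.3) and PGAM1 (median 28.6) lay just below with overlapping ranges. GPI was last in all 6 libraries by exonic length, between 2.29 and 10.8 CPM per kilobase, over 10680 exonic bases. By the 2040 bases of its principal transcript its median was 40.4 CPM per kilobase, beside 42.1 for PGK1 and 40.1 for PGAM1, and these 3 shared ranks 8 to 10 and exchanged the last place. By exonic length, the ranges over libraries of neighbours in the order from LDHB down to PGAM1 overlapped. Within each of the 6 libraries, however, PKM lay above PGK1. By length of the principal transcript the ranges of these genes did not overlap, with PKM at 117 to 183 and PGK1 at 22.6 to 63.5 CPM per kilobase.

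**Figure D2:**
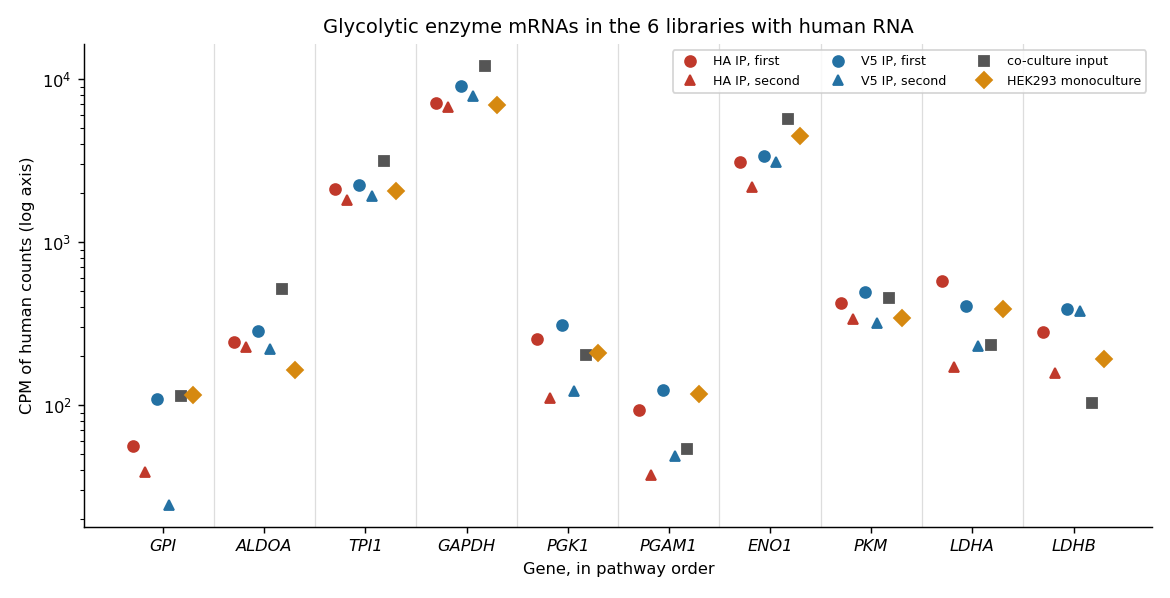
Each point is the level of 1 gene in 1 library, in CPM of human counts on a log axis, with genes in pathway order along the horizontal axis. The input (square) lies above both HA IPs (red) for GPI, ALDOA, TPI1, GAPDH, ENO1 and PKM, and below them for LDHB.

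The 3 first-stage enzymes had lower values in both HA IPs than in the input, although none passed the test given below. ALDOA, the aldolase, had 245 and 228 CPM in HA IPs and 287 and 220.1 CPM in V5 IPs, against 514 CPM in the input and 163 CPM in HEK293 cells. The input was above all 4 IPs, and HEK293 cells were below them. TPI1, the triose phosphate isomerase, had 2116 and 1810.1 CPM in HA IPs and 2242 and 1919 CPM in V5 IPs, against 3162 CPM in the input and 2053 CPM in HEK293 cells. The 4 IPs and HEK293 cells lay close together, with the input above them. GPI, the phosphoglucose isomerase, had 56.2 and 38.7 CPM in HA IPs and 109 and 24.5 CPM in V5 IPs, against 114 CPM in the input and 115 CPM in HEK293 cells. Its V5 values rest on 14 and 2 counts, and the HA and V5 IPs overlapped.

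Among the second-stage enzymes, the abundant GAPDH and ENO1 had their highest value in the input, and PGK1, PGAM1 and PKM did not. GAPDH had 7134 and 6745 CPM in HA IPs and 9083.5 and 7885 CPM in V5 IPs, against 12071.5 CPM in the input and 6953 CPM in HEK293 cells. By CPM both HA IPs lay below both V5 IPs, these lay below the input, and HEK293 cells lay between the HA IPs. ENO1, the enolase, had 3115 and 2176 CPM in HA IPs and 3374 and 3105 CPM in V5 IPs, against 5697 CPM in the input and 4466 CPM in HEK293 cells. Both total RNA libraries lay above all 4 IPs. PKM, the pyruvate kinase, had 425 and 337 CPM in HA IPs and 496 and 318 CPM in V5 IPs, against 457 CPM in the input and 344 CPM in HEK293 cells, and the ranges overlapped apart from an input above both HA IPs. PGK1, the phosphoglycerate kinase, had 255 and 110.5 CPM in HA IPs and 310.3 and 122 CPM in V5 IPs, against 203 CPM in the input and 208 CPM in HEK293 cells. PGAM1, the phosphoglycerate mutase, had 93.2 and 37.1 CPM in HA IPs and 124 and 48.9 CPM in V5 IPs, against 53.5 CPM in the input and 117 CPM in HEK293 cells. For both PGK1 and PGAM1 the first and second IPs lay on opposite sides of the input, so their difference from it lay within the spread of the IPs.

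The lactate dehydrogenase subunits had the input near or at the low end. LDHA had 579.7 and 172 CPM in HA IPs and 403 and 232 CPM in V5 IPs, against 236 CPM in the input and 387 CPM in HEK293 cells. With each antibody the first IP lay above the input and the second below it. LDHB had 282 and 158 CPM in HA IPs and 388 and 379 CPM in V5 IPs, against 104 CPM in the input and 192 CPM in HEK293 cells. It was the only member below all 4 IPs in the input, where it had 29 counts.

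HA IPs were compared with the input in an edgeR quasi-likelihood fit over the 6244 genes, with log2 differences given as HA minus input. No member passed a Benjamini-Hochberg adjusted p of 0.05, against a background of 0.625% of all genes tested (12 higher and 27 lower). DESeq2's Wald test called 1 member, ENO1, against 1.31% of all genes tested (35 higher and 47 lower). With human totals in place of TMM factors, the edgeR calls over all genes split into 65 higher and 39 lower, so their balance depends on the scaling. At an unadjusted p under 0.05 there were 3 members, ALDOA, GAPDH and ENO1, and 553 genes. The median log2 difference was -0.67 for the members and 0.38 for all genes tested, with 7 members below 0 and 3 above. ENO1 had a log2 difference of -1.31 ± 0.47 (SE) with an adjusted p of 0.238 in edgeR. GAPDH had -0.98 ± 0.44 with an adjusted p of 0.476, ALDOA -1.30 ± 0.64 with 0.534, TPI1 -0.88 ± 0.49 with 0.610 and GPI -1.47 ± 0.90 with 0.685. The other 5 lay between -0.46 (PKM) and 0.86 (LDHB), with adjusted p between 0.815 and 0.997. Both HA IPs were below the input in CPM for 6 of the 10 members, against 25.8% of genes tested, and above it for 1 member, against 52.1%. That count was 7 with TMM factors or DESeq2 size factors, with PGK1 added, against 30% and 36.6% of genes tested.

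ENO1 and GAPDH were called under some of the alternatives. ENO1 was called lower in HA IPs with DESeq2 size factors (-1.53, edgeR adjusted p = 0.00471), with human totals alone (-1.11, adjusted p = 0.00863) and with a filter of 50 counts in 2 libraries (-1.48, adjusted p = 0.0306). Of all genes tested, 1.09%, 1.67% and 2.29% were called in these fits, in that order. GAPDH was called with DESeq2 size factors (-1.20, edgeR adjusted p = 0.0263) and with human totals (-0.80, adjusted p = 0.0470). Without the first HA IP the difference was -1.44 for ENO1 and -0.89 for GAPDH, and without the second -1.29 and -1.17. Those fits set 1 HA IP against 1 input, with the V5 pair as the only measure of spread, so no p-value is given. Leaving out an HA IP also left fewer genes to test, 4603 when the first was dropped and 4668 when the second was. The main fit has 2 residual degrees of freedom, both from first against second IPs, and the single input is assumed to vary like the IPs. edgeR shared the spread between genes. Its intervals are therefore narrower, and its p-values smaller, than a gene's own 2 degrees of freedom would give. These p-values measure only the spread between the deposited IPs, which may be technical.

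V5 IPs are aimed at mouse ribosomes, and the human RNA in them was compared with the input in the same fit. HA against input and V5 against input share the input library. No member was called, against 0.753% of genes tested, in edgeR at an adjusted p of 0.05. DESeq2's Wald test called no member either, against 0.977% of genes. Over all genes the edgeR calls split into 16 higher and 31 lower, and with human totals into 85 higher and 20 lower. At an unadjusted p under 0.05 there were 4 members (ALDOA, TPI1, GAPDH and ENO1) and 807 genes. The median log2 difference, V5 minus input, was -0.89 for the members and 0 for all genes. ALDOA had -1.56, ENO1 -1.37, GPI -1.24, TPI1 -1.16 and GAPDH -1.07, while LDHB had 1.33 with an edgeR adjusted p of 0.450. The value for GPI was -2.76 without the first V5 IP and -0.60 without the second. The smallest adjusted p among members in edgeR was 0.150, for ENO1. Both V5 IPs were below the input for 5 members, against 27.3% of genes, and above it for LDHB alone, against 30.3%. Fitted with V5 IPs and input alone, the difference was -1.11 for ENO1 and -0.81 for GAPDH. Without the first HA IP the differences were -1.36 for ENO1, -1.06 for GAPDH and -1.15 for TPI1. Without the second HA IP they were -1.37, -1.07 and -1.16. Those fits keep 1 HA IP. Like the fit of V5 IPs and input alone, they take their spread from the V5 pair, so no p-value is given for any of them.

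**Figure D3:**
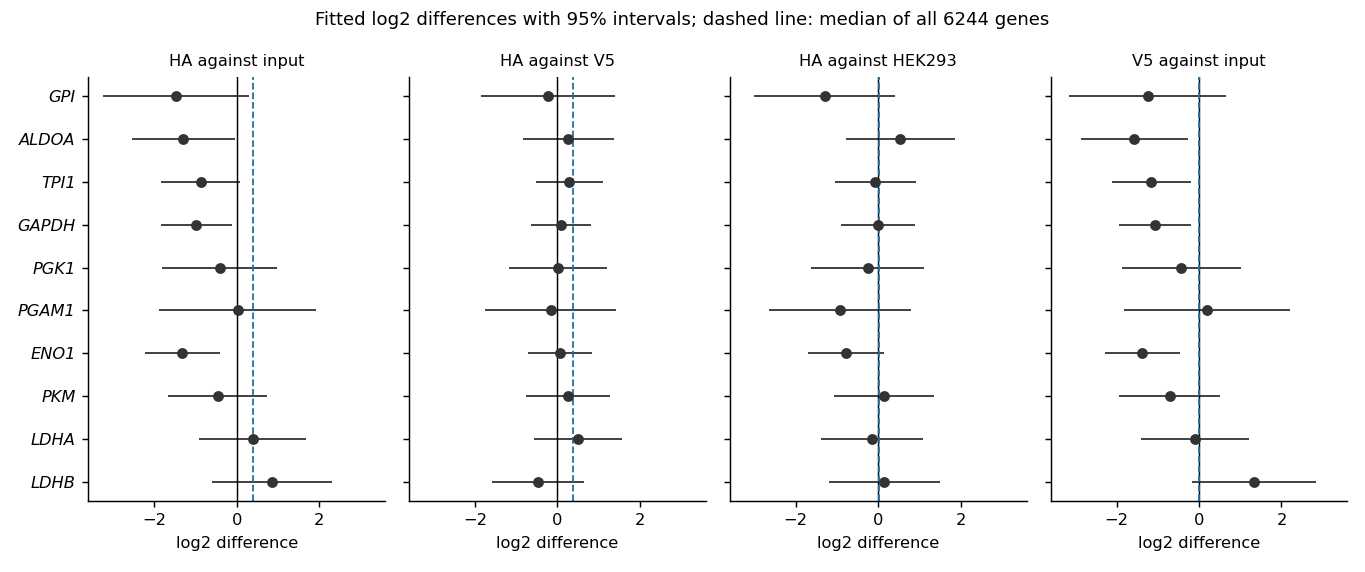
Points are fitted log2 differences of the 10 genes in 4 comparisons (HA against input, HA against V5, HA against HEK293, V5 against input) with 95% intervals, and the dashed line is the median of all 6244 genes tested. Of the 10 members, 2, 1, 3 and 2 lie right of that line in the 4 panels from left to right, and the median of the members is -0.67, 0.07, -0.11 and -0.89.

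HA IPs were compared with V5 IPs in the same fit. No member was called in HA against V5, where 0.368% of genes tested were called in edgeR, and none had an unadjusted p under 0.05 (697 genes did). DESeq2's Wald test called no member either, against 0.464% of genes. Fitted log2 differences, HA minus V5, ran from -0.47 (LDHB) to 0.50 (LDHA), with edgeR adjusted p between 0.753 and 0.994. For GAPDH the difference was 0.09 with a 95% interval of -0.64 to 0.82, which leaves room for differences in either direction. The median was 0.07 for members and 0.37 for all genes with TMM factors. With DESeq2 size factors the medians were -0.26 and 0.03, and ALDOA, TPI1, GAPDH, PGK1, ENO1 and PKM then turned negative, so no direction can be given for them. LDHB was -0.79 and GPI -0.56 with those factors, and LDHB was -0.999 with the filter of 50 counts in 2 libraries. By CPM, both HA IPs were below both V5 IPs for GAPDH and LDHB, 2 of 10, against 15% of genes tested, and above them for none, against 25.7%. Of these, GAPDH lost that order with TMM factors and LDHB kept it with every scaling tried.

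Against HEK293 cells grown alone, 6 members had a negative fitted difference in HA IPs and 4 a positive one. No member was called in this comparison, where 0.368% of genes were called in edgeR, and none had an unadjusted p under 0.05 (239 genes did). DESeq2's Wald test called no member either, against 0.561% of genes. Over all genes the edgeR calls split into 3 higher and 20 lower, and with human totals into 24 higher and 29 lower. Fitted log2 differences, HA minus HEK293, ran from -1.30 (GPI) to 0.54 (ALDOA), all with an edgeR adjusted p of 0.99987. The median was -0.11 for members and 0.01 for all genes. GAPDH had 0.00 with a 95% interval of -0.89 to 0.89. Both HA IPs were below HEK293 cells for GPI, PGAM1 and ENO1, against 33.6% of genes tested, and above for ALDOA, against 34.1%. The comparison shares the HA IPs with those above.

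Total RNA of the mixed culture and of HEK293 cells alone, 1 library each, differed in opposite directions for different members. There is no replicate check of this difference, and the intervals cover counting error only. Compared as input over HEK293, ALDOA had 144 counts in the input and 135 in HEK293 cells, a CPM ratio of 3.15 (exact 95% interval 2.47 to 4.01). GAPDH had a ratio of 1.74 (1.66 to 1.81), TPI1 of 1.54 (1.42 to 1.67), PKM of 1.33 (1.07 to 1.64) and ENO1 of 1.28 (1.20 to 1.35). These 5 have the highest GC content of the 10. PGAM1 had a ratio of 0.456 (0.246 to 0.790), LDHB of 0.538 (0.349 to 0.803) and LDHA of 0.609 (0.460 to 0.795), while GPI (0.994) and PGK1 (0.978) had intervals that include 1. At least a 2-fold difference was seen for 2 members, ALDOA and PGAM1, against 53.7% of 2558 genes that reached 50 CPM in 1 of the libraries. With TMM factors or DESeq2 size factors, GPI and PGK1 were higher in the input, and the other 8 kept their direction.

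GC content moved with the difference from the input, for members and for genes in general. Over 2255 genes averaging 50 CPM or more, Spearman's rho between GC content and the log2 difference was -0.67 for HA against input and -0.58 for V5 against input. Over the 10 members it was -0.71 and -0.78. The points of each correlation share their libraries, so these values are descriptions. For HA against V5 rho was 0.04 over genes and 0.27 over members. For input over HEK293 it was 0.78 over 2558 genes and 0.79 over members. In HA against input, genes within 2 percentage points of GC content had a median log2 difference of -0.43 for ENO1, -0.43 for GAPDH and -0.45 for TPI1, with a lower quartile of -1.03, -1.03 and -1.04. ENO1, at -1.31, lay below the lower quartile of its neighbours, and GAPDH, at -0.98, and TPI1, at -0.88, lay between the lower quartile and the median of theirs. GPI, at -1.47, was below a neighbour median of -0.17 and a lower quartile of -0.65. PGK1, at -0.41, was below a neighbour median of 0.97. ALDOA, at -1.30, was below a lower quartile of -1.03. In all, 4 members (GPI, ALDOA, PGK1 and ENO1) lay below the lower quartile of their neighbours, 4 (TPI1, GAPDH, PKM and LDHA) between it and the median, and 2 (PGAM1 and LDHB) between the median and the upper quartile. With the GC trend of each library removed, the HA minus input differences were -0.45 ± 0.41 (SE) for ENO1, -0.14 ± 0.38 for GAPDH, -0.10 for TPI1 and -0.43 for ALDOA. They were -1.01 for GPI, -0.91 for PGK1 and 0.68 for LDHB. PKM became 0.39 and LDHA -0.07, which turned their sign. The median over members was then -0.12, against 0.47 over all genes. In V5 minus input, removing the trend gave -0.52 ± 0.41 for ENO1, -0.40 ± 0.44 for TPI1, -0.22 ± 0.38 for GAPDH, -0.68 for ALDOA and -0.82 for GPI.

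**Figure D4:**
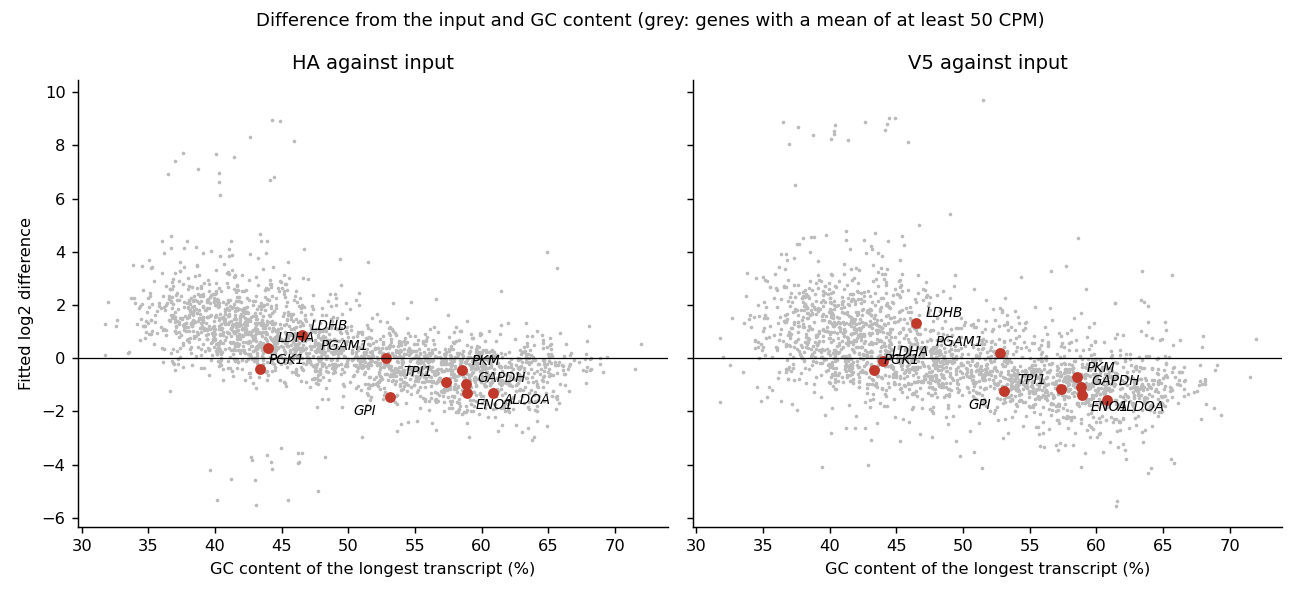
The vertical axis gives the fitted log2 difference, HA minus input (left) and V5 minus input (right), and the horizontal axis the GC content of the longest transcript (%). Grey points are genes averaging 50 CPM or more and red points the 10 enzymes, which follow the downward slope of the grey points with Spearman's rho of -0.71 and -0.78.

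LDHA, PGAM1 and PGK1 differed most between the second and the first HA IP. By CPM, all 10 members were lower in the second IP than in the first with both antibodies, against 31.8% of genes tested. With TMM factors that number was 6 (GPI, PGK1, PGAM1, ENO1, LDHA and LDHB), against 24% of genes, and with DESeq2 size factors it was 7, with PKM added, against 27%. LDHA had 209 counts in the second HA IP and 423 in the first, a CPM ratio of 0.297 (exact 95% interval 0.251 to 0.352). PGAM1 had a ratio of 0.398 (0.267 to 0.589) and PGK1 of 0.433 (0.344 to 0.544) between the HA IPs. These 3 were at least 2-fold lower in the second HA IP, against 17.9% of 2590 genes that reached 50 CPM in 1 of them. GAPDH (0.945), ALDOA (0.931) and TPI1 (0.855) had ratios nearest 1. Between V5 IPs, PGK1 had a ratio of 0.394 (0.176 to 0.802), PGAM1 of 0.394 (0.0959 to 1.22) and GPI of 0.225 (0.0248 to 0.980, from 2 and 14 counts), against 25.9% of 3290 genes at least 2-fold lower. LDHA had 0.576 (0.322 to 0.991) and LDHB 0.977 (0.603 to 1.56). The median log2 ratio, second over first, was -0.52 for members and -0.19 for genes in HA IPs, and -0.48 for members and -0.03 for genes in V5 IPs. Spearman's rho of this ratio with GC content was 0.78 over members and 0.33 over genes in HA IPs, and 0.44 and -0.01 in V5 IPs.

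**Figure D5:**
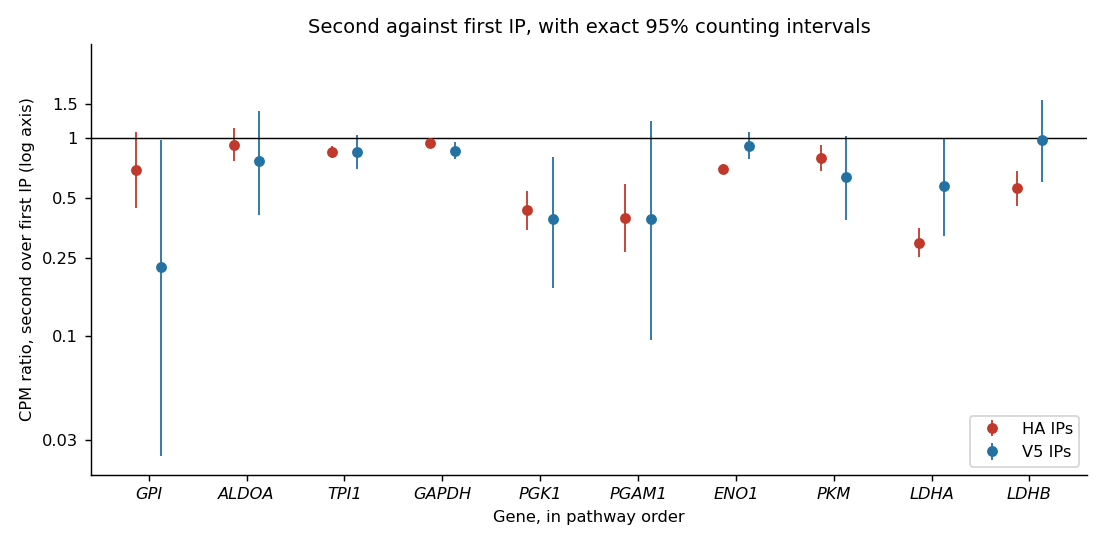
Points are the CPM ratio of the second over the first IP on a log axis, for HA IPs (red) and V5 IPs (blue), with exact 95% counting intervals and genes in pathway order. Every ratio lies below 1, down to 0.297 for LDHA in HA IPs and 0.225 for GPI in V5 IPs.

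The balance of lactate dehydrogenase subunits can be read within a library, without any scaling between libraries. LDHB counts over LDHA counts per exonic kilobase gave 1.01 (exact 95% interval 0.854 to 1.20) for the first HA IP and 1.91 (1.56 to 2.34) for the second. The ratio was 2.002 (1.33 to 3.01) for the first V5 IP and 3.40 (1.86 to 6.36) for the second, 0.915 (0.570 to 1.44) in the input and 1.03 (0.850 to 1.25) in HEK293 cells. The first HA IP, the input and HEK293 cells could not be separated, and the second HA IP and both V5 IPs were above HEK293 cells beyond counting error. Both HA IPs lay below both V5 IPs, although the interval of the second HA IP overlapped those of the V5 IPs. By length of the principal transcript the ratio was 0.718 and 1.36 in HA IPs, 1.42 and 2.41 in V5 IPs, 0.648 in the input and 0.733 in HEK293 cells. LDHB led by both lengths in the second HA IP and both V5 IPs. In the first HA IP and HEK293 cells the leader depends on the length used. LDHA led by both in the input, where the exonic interval includes 1. LDHB shares 33.4% of its exonic bases with another gene, and LDHA shares none. Unshared exonic bases give a higher ratio in every library, with values in the closing section. The order of the libraries does not depend on the length, since the lengths are the same in each.

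Other genes of glucose use were described from 5 gene lists, and none of their tested genes was called in any of the 4 comparisons. Of the lists' genes, 3 of 5 for glucose and lactate transport, 3 of 9 for the hexokinase and phosphofructokinase steps, 2 of 10 for other isozymes, 9 of 10 for pyruvate entry into mitochondria and 6 of 12 for the HIF pathway were tested. The 2 genes of each list with the highest mean level are named. BSG, a partner of the lactate transporters, had 397 and 340.4 CPM in HA IPs and 124 and 196 CPM in V5 IPs, against 421 CPM in the input and 229.8 CPM in HEK293 cells. SLC16A1, a lactate transporter, had 41 and 36 counts in HA IPs, 4 and 5 in V5 IPs, 0 in the input and 50 in HEK293 cells, where the 0 of the input allows up to 3 counts. PFKL, a subunit of phosphofructokinase, had 42.5 and 19.8 CPM in HA IPs and 140 and 61.1 CPM in V5 IPs, against 161 CPM in the input and 41.1 CPM in HEK293 cells. HK1, a hexokinase, had between 3 and 12 counts in each of the 6 libraries. For PFKL both HA IPs lay below both V5 IPs and the input.

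Isozymes outside the 10 genes were scarce. Of the 10 listed, 5 had 0 counts in all 6 libraries, and the list summed to between 0 and 80.9 CPM. BPGM, which makes the bisphosphoglycerate that regulates haemoglobin, had 22 and 4 counts with HA, 0 in both V5 IPs and in the input, and 24 in HEK293 cells. LDHC, known as the testis form of lactate dehydrogenase, had 26 and 2 counts with HA, 0 in both V5 IPs, 1 in the input and 15 in HEK293 cells. MPC1 and MPC2, which form the carrier that takes pyruvate into mitochondria, had higher values in both HA IPs than in the input. The same held for 52.1% of genes tested. MPC1 had 418 and 494 CPM in HA IPs, 396 and 795 CPM in V5 IPs, 249.9 CPM in the input and 302 CPM in HEK293 cells. MPC2 had 508 and 748 CPM in HA IPs, 303 and 159 CPM in V5 IPs, 299.8 CPM in the input and 295 CPM in HEK293 cells. Of the 9 tested genes of that list, 8 had a positive log2 difference in HA against input, with a median of 0.93 against 0.38 over all genes. With that positive median, most genes tested were above 0 too. BNIP3, a target of the HIF pathway, had 144 and 78.3 CPM in HA IPs, 62.1 and 85.6 CPM in V5 IPs, 39.3 CPM in the input and 89.5 CPM in HEK293 cells. BNIP3L, its relative, had 33 and 43 counts in HA IPs, 2 and 1 in V5 IPs, 1 in the input and 65 in HEK293 cells.

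Genes with the library profile most like the members' mean were sought among the 2255 genes averaging 50 CPM or more, over 6 libraries. Likeness was the root mean square distance between log2 CPM profiles, each centred on its own mean. The members' mean profile was 0.05 and -0.25 in HA IPs, 0.14 and -0.60 in V5 IPs, 0.47 in the input and 0.18 in HEK293 cells. OSER1 (0.136), POLR2G (0.152), ATP5F1A (0.164), PRPF31 (0.166) and ZNF207 (0.200) were nearest on the log2 scale, and the median gene was at 0.736. Among the members themselves PKM was nearest, at 0.174, and LDHB farthest, at 0.710. Each member is part of that mean, which brings it nearer, so these distances are not comparable with those of other genes. POLR2G, a subunit of RNA polymerase II, had 319 and 222 CPM in HA IPs and 427 and 269 CPM in V5 IPs, against 286 CPM in the input and 287 CPM in HEK293 cells. ATP5F1A, a subunit of ATP synthase, had 179.5 and 106 CPM in HA IPs and 186 and 97.8 CPM in V5 IPs, against 136 CPM in the input and 151.2 CPM in HEK293 cells.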

How the data were processed

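The authors deposited raw read counts per gene. Per the file headers, featureCounts 1.5.2 counted paired reads over exons grouped by gene, without strand, on a combined human and mouse annotation. STAR 2.5.2, Trim Galore, SAMtools, bcl2fastq and hg38 appear in the submitters' processing notes. The command set no option for reads on several genes or places, which featureCounts leaves out by default. Per the labels' protocols, SMART-seq cDNA went into Nextera DNA Flex libraries.

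All 58721 human identifiers matched GENCODE 29, which gave symbols, coordinates, exon overlaps and sequences. CPM were computed over human counts of each library, from 81798 to 1213213. The deposited human counts were tested in edgeR 4.0.16 under R 4.3.3 (quasi-likelihood, TMM factors within human counts, filterByExpr at 10 counts and a total of 15, two-sided, Benjamini-Hochberg over 6244 genes, threshold 0.05). One fit held HA IPs, V5 IPs, input and HEK293 cells, with 2 residual degrees of freedom and a biological coefficient of variation of 51.2%. Single libraries were compared by CPM ratio with exact intervals from the binomial split of counts, among genes that reached 50 CPM in 1 of the libraries, where 2-fold was counted on log2 CPM with a prior count of 2. Ratios and shares carry 95% intervals for counting error only.

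The members and lists were chosen with earlier results of these data known, and no list was given a test of its own. The rule for named genes took all 10 members, the 2 genes of highest mean CPM in each list and the 5 genes nearest the members' mean profile. Alternatives were DESeq2 1.42.0 (size factors, Wald test), human totals, other filters, a replicate block, only the groups compared, removal of the GC trend (loess, span 0.3), the NIH3T3 background taken off, pseudogene counts added and leaving out each IP. Other lengths for the lactate dehydrogenase ratio, and other scalings for the order of libraries, were chosen after seeing the data. Other values used scipy 1.17.1 and pandas 2.3.3 under Python 3.11.15, with numpy 2.4.6, and figures used matplotlib 3.10.9. Mouse genes were not used here.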

Additional observations from a re-analysis of the deposited data

How the results depend on the processing

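Values below are log2 differences. With DESeq2 size factors, PGAM1 turned to -0.17 (HA against input), ALDOA to -0.073, TPI1 -0.053, GAPDH -0.25, PGK1 -0.29, ENO1 -0.27 and PKM -0.084 (HA against V5), GAPDH to -0.084 (HA against HEK293) and LDHA to 0.012 (V5 against input). DESeq2's Wald test gave the same 9 sign changes, at -0.17, -0.073, -0.053, -0.25, -0.28, -0.27, -0.085, -0.084 and 0.0075. With human totals, HA against V5 gave ALDOA -0.11, TPI1 -0.085, GAPDH -0.29, PGK1 -0.28, ENO1 -0.29 and PKM -0.11, HA against HEK293 GAPDH -0.0028, and V5 against input PGK1 0.12 and LDHA 0.45. With at least 50 counts in 2 libraries, PGAM1 was -0.11 in HA against input. In HA against V5, ALDOA was -0.30, TPI1 -0.27, GAPDH -0.48, PGK1 -0.48, ENO1 -0.49 and PKM -0.30. GAPDH was -0.18 and PKM -0.036 in HA against HEK293, and LDHA 0.27 in V5 against input. With only the groups compared, PGAM1 was -0.10 in HA against input, LDHA 0.15 in V5 against input, and HA against V5 gave ALDOA -0.026, TPI1 -0.0071, GAPDH -0.21, PGK1 -0.24, ENO1 -0.23 and PKM -0.037. With the GC trend removed, HA against input gave PKM 0.39 and LDHA -0.072, HA against HEK293 GAPDH -0.24, PKM -0.078 and LDHA 0.0017, and V5 against input PKM 0.14. With no filter, GAPDH was -0.11 in HA against HEK293.

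Both first IPs are labelled lysate 1, while the second ones are labelled lysate 5 (HA) and lysate 4 (V5). The labels thus give a shared lysate number for the first IPs only. The replicate block joins the second ones as well. First-minus-second deviations of the HA and V5 IPs correlated at r = 0.0913 over 6244 genes. With the replicate block, calls numbered 51, 24, 28 and 63 in HA against input, V5 and HEK293 and in V5 against input, against 39, 23, 23 and 47 without it. PGAM1 turned to -0.050 and, in HA against HEK293, GAPDH to -0.00025. No member was called under the block.

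Members called in HA against input numbered 0 in the fit as reported, where 0.625% of genes tested were called. They numbered 2 with DESeq2 size factors (1.09% of genes) or human totals (1.67%). With at least 50 counts in 2 libraries (2.29%) or DESeq2's Wald test (1.31%), 1 member was called. In V5 against input they numbered 2 with only the groups compared and 0 to 3 leaving out an IP. Human genes called in HA against input were 68 with size factors, 104 with totals, 82 with the Wald test, 260 with only the groups compared and 29 to 140 leaving out an IP. In HA against V5 they were 38 with totals and 18 to 117. In HA against HEK293 they were 53 with totals, 35 with the Wald test, 48 with only the groups compared and 26 to 63. In V5 against input they were 72 with size factors, 105 with totals, 30 with no filter, 7 with the strict filter, 71 with only the groups compared, 22 with the GC trend removed and 76 to 167. The cause of these changes was not tested. The counts given here for only the groups compared, or for leaving out an IP, come from fits with 1 pair of IPs as their only measure of spread. For that reason no p-value from such fits against the input is given above, and these counts are no check of the main fit. The 3 members in V5 against input were called only where an HA IP was left out.

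Leaving out each IP, HA against input gave PGAM1 -0.58 to 0.38 and LDHA -0.50 to 0.88. HA against V5 gave PGK1 -0.50 to 0.89, ENO1 -0.077 to 0.13, LDHA -0.40 to 0.99, GAPDH -0.11 to 0.21, PGAM1 -0.76 to 0.72, GPI -0.85 to 1.31 and PKM -0.026 to 0.64. HA against HEK293 gave LDHB -0.14 to 0.36, GAPDH -0.16 to 0.10, PGK1 -0.77 to 0.10 and LDHA -1.02 to 0.39. V5 against input gave GPI -2.76 to -0.60, PGAM1 -0.68 to 0.68, PGK1 -1.29 to 0.082 and LDHA -0.57 to 0.25. The members' share without mitochondrially encoded genes was 2.39% in the input and 1.64% in HEK293 cells. LDHB over LDHA was 0.72 and 1.36 in the HA IPs and 0.73 in HEK293 cells by transcript length, and 1.52, 2.87 and 1.55 by unshared exonic bases. The sign of ENO1, GAPDH, TPI1, ALDOA and GPI against the input stayed negative for HA and V5 under all 14 alternatives, of which the filter of 50 counts in 2 libraries did not test GPI. Removing the GC trend brought them nearer 0, down to -0.10 for TPI1 in HA. V5 IPs had 2 to 14 GPI counts and 4 to 16 PGAM1 counts, which limits both.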
